A study of Homo sapiens with 6 samples.

Results

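Clade A serpins and angiotensinogen are plasma proteins made in the liver, and their transcripts were followed here in HepG2 cells after knockdown of DGUOK. The 9 genes, SERPINA1, SERPINA3, SERPINA4, SERPINA5, SERPINA6, SERPINA7, SERPINA10, SERPINA11 and AGT, were picked by gene symbol. They are 9 of the 34036 genes in the count table, and all 9 passed the count filter that left 14476 genes for testing. SERPINA2, SERPINA9 and SERPINA12, which also belong to clade A, are not among the 9 and had at most 23 counts in any library.

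HepG2 is a hepatocellular carcinoma line that keeps much of the secretory program of hepatocytes. Cells were transfected with a siGENOME siRNA pool against DGUOK (siDGk) or with non-targeting siRNA (siCON), using Lipofectamine RNAiMAX, and RNA was sequenced after 48 h from 3 cultures of each condition. The labels give the molecule as polyA RNA, but their library protocol names both poly(A) selection and rRNA depletion. The cultures are described as independent biological replicates handled in parallel, so the p-values measure the spread between cultures of 1 line. Effects of the siRNA pool other than loss of DGUOK cannot be told apart from those of the knockdown, because 1 pool was used. In the labels, the treatment entry of all 6 samples gives siControl, and the groups were therefore taken from the titles.

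Serpins inhibit serine proteases by offering an exposed reactive centre loop, and the protease that cuts the loop is trapped as the cut loop is drawn into the body of the serpin. Most clade A members are secreted by hepatocytes and circulate as inhibitors of leukocyte, kallikrein and coagulation proteases. Some have no inhibitory role: corticosteroid-binding globulin and thyroxine-binding globulin carry hormones, and angiotensinogen is the precursor of the angiotensin peptides.

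Total counts were 19065684, 18915508 and 10527216 in siCON libraries and 18613138, 15978314 and 21334876 in siDGk libraries. In siDGk replicate 1, 21057 genes had a count, against 16205 to 17583 in the other 5 libraries. In siDGk replicate 2, endothelial markers summed to 58.5 CPM (counts per 1000000 counts of the library, with totals scaled by TMM), against 1.39 to 4.49 CPM in the others. Both libraries were therefore also left out in turn, and the same 5 members were called lower without either.

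DGUOK encodes the mitochondrial deoxyguanosine kinase, which phosphorylates purine deoxynucleosides for mitochondrial DNA synthesis. Its level was 54.4, 53.1 and 48.2 CPM in siCON libraries and 9.08, 10.5 and 6.72 CPM in siDGk libraries. Every siDGk library lay below every siCON library, as the labels give them. The log2 fold change was −2.57 (SE 0.19; edgeR's quasi-likelihood test, adjusted p = 1.64e-08, n = 3 per group).

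AGT, SERPINA6, SERPINA7, SERPINA11 and SERPINA4, 5 of the 9 members, fell in siDGk cells. SERPINA1, by far the most abundant member, had nearly the same mean in both conditions, and SERPINA3, SERPINA5 and SERPINA10 were not called. Calls required an adjusted p under 0.05 in edgeR's quasi-likelihood test together with an absolute log2 fold change above 0.5. By this rule 5 of the 9 members were called, against 14.1% of the 14476 genes tested. All 5 were called lower, against 6.68% of genes tested. No member was called higher, against 7.42% of genes tested, and the count of higher members was also 0 at an unadjusted p under 0.05 in edgeR, and 0 by the same rule in DESeq2 and limma-voom. For 7 members the libraries of siCON and siDGk showed no overlap, against 36% of genes tested. The median log2 fold change was −0.92 over the members and 0.02 over all genes tested. All 9 members averaged 10 CPM or more, and of the 9226 tested genes at such levels 8.93% were called lower and 9.35% higher. Members were chosen with earlier results of these data known, so these shares are a description and not an independent test.

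**Figure D1:**
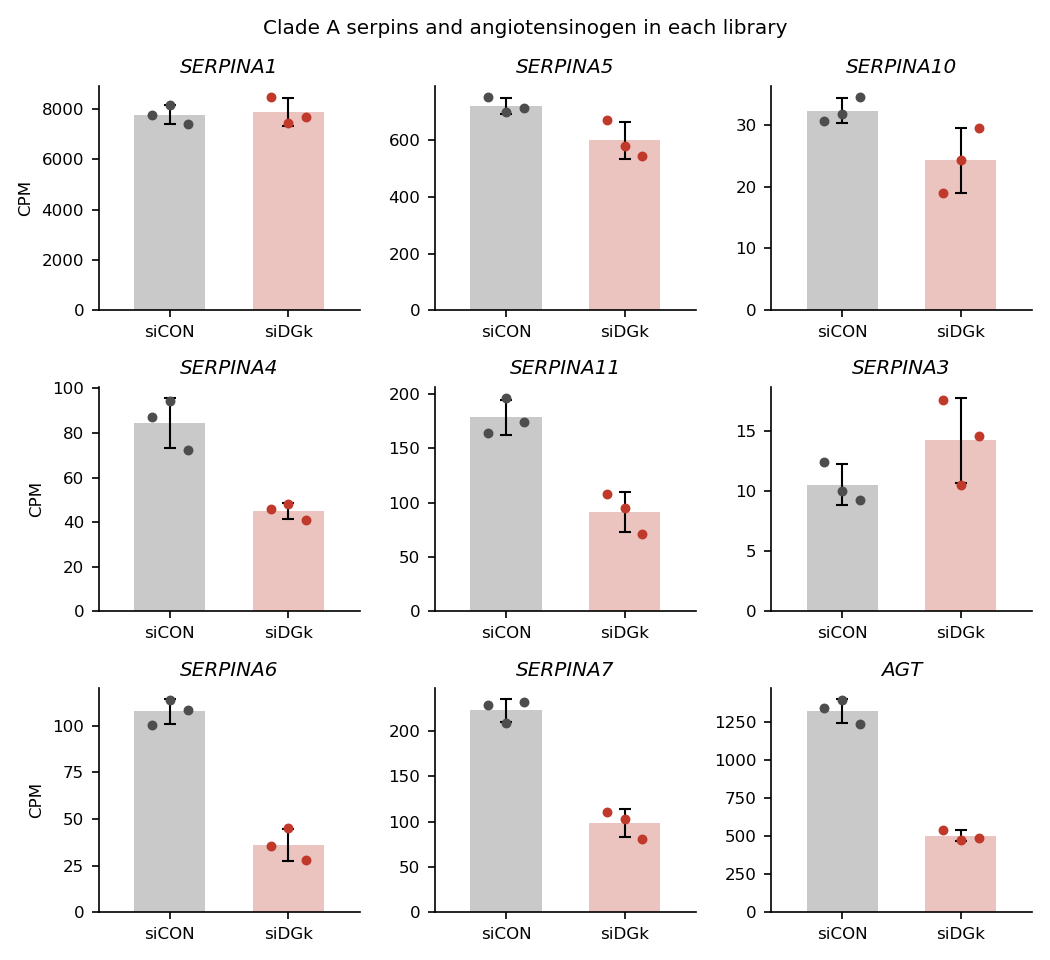
Level of each member in CPM (points, libraries; bars, mean of 3 libraries; whiskers, SD), with siCON in gray and siDGk in red. SERPINA1 sat between 7403 and 8493 CPM in all 6 libraries, whereas the 3 AGT points of siDGk lay between 478 and 544 CPM, below the 1241 to 1396 CPM of siCON.

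Compared per kilobase of the canonical transcript, the members spanned a wide range in siCON cells. SERPINA1 stood at 2585 ± 124 CPM per kb (SD, n = 3), rank 19 of 33643 genes with a known length. AGT followed at 626 ± 37.3 CPM per kb and rank 130, and SERPINA5 at 316 ± 12.6 CPM per kb and rank 222. SERPINA11 (120 ± 11.04 CPM per kb), SERPINA7 (94.5 ± 5.40), SERPINA6 (73.0 ± 4.57) and SERPINA4 (50.9 ± 6.72) came next, each separated from its neighbours in level by more than their SD. SERPINA3 (6.71 ± 1.06 CPM per kb) and SERPINA10 (6.49 ± 0.411) were lowest, and by this length these 2 levels did not differ beyond their spread. In siDGk cells AGT was at 238 ± 16.7 CPM per kb, beside 262 ± 28.2 for SERPINA5, so that the 2 levels overlapped within their SD. The order depends on the length used: over all annotated exons, AGT was at 104 CPM per kb in siCON cells and in place 4 among the members. Over that length SERPINA3 (2.11 ± 0.334 CPM per kb) lay below SERPINA10 (5.9 ± 0.374) in siCON cells by more than their SD.

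To describe the start regions of members that moved together and of those that did not, the RefSeq promoter windows (GRCh38.p14, 250 bases before to 50 after each start) were searched for short motifs of liver transcription factors. All 9 members matched, with 11 windows, as SERPINA1 and SERPINA10 each have 2 annotated starts. The letters were GTTAAT (a liver promoter element), TGTTTAC (FOXA), CAAAGTC (HNF4), TTGCGCAA and TTGCAAT (C/EBP) and TTCNNNGAA (STAT), read on both strands, and no motif contains another. GTTAAT was in 5 of the 11 windows, those of SERPINA1, SERPINA4, SERPINA6, SERPINA7 and SERPINA10, and in 6.88% of all 35116 windows. TTCNNNGAA was in 4, those of SERPINA5, SERPINA6, SERPINA11 and AGT, and in 7.66% of all windows. TGTTTAC was found in SERPINA6 (3.42% of all windows) and TTGCAAT in SERPINA7 (1.95%). CAAAGTC (3.37%) and TTGCGCAA (0.151%) were in no member window. The windows of 4 members, all on the minus strand, are shown with every match in capitals, because they set the uncalled SERPINA1 beside 3 members that fell. They are SERPINA1 at chr14:94388553-94388852 (the downstream start, which hepatocytes use), SERPINA6 at chr14:94323287-94323586, SERPINA7 at chrX:106038678-106038977 and AGT at chr1:230714073-230714372.
SERPINA1: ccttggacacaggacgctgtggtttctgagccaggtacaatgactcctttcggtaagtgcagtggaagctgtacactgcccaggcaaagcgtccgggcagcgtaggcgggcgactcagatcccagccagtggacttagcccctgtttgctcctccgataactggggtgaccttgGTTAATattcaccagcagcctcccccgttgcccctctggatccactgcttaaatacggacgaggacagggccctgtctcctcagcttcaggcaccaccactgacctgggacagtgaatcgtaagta
SERPINA6: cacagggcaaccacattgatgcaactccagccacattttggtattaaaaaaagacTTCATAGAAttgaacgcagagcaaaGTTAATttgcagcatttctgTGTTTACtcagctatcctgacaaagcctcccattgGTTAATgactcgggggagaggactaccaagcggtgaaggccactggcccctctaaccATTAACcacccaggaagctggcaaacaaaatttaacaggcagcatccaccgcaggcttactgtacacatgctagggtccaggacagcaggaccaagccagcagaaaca
SERPINA7: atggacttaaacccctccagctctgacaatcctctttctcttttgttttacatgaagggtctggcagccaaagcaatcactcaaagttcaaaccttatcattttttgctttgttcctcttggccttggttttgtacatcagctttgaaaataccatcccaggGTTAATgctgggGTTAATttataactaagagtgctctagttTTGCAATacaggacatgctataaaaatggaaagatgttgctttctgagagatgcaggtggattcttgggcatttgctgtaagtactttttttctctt
AGT: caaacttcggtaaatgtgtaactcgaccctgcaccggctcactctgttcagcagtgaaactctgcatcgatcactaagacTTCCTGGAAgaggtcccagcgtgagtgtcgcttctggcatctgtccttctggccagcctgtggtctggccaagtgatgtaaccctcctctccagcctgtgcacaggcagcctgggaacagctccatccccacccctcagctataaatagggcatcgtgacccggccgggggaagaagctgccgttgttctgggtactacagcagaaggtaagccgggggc
SERPINA1 holds GTTAAT with its first base at −76 from the start. SERPINA7 holds it at −88 and −76, and SERPINA6 at −170 and −115, with the reverse complement ATTAAC at −58. AGT holds only TTCCTGGAA, at −170. The letters GTTAAT were thus present both in members that fell and in members that were not called. A match describes the letters of a window and is not evidence of binding.

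SERPINA1 (ENSG00000197249.13) encodes alpha-1-antitrypsin, the main plasma inhibitor of neutrophil elastase. It was measured at 7756, 8151 and 7403 CPM in siCON libraries and at 8493, 7429 and 7704 CPM in siDGk libraries. The highest value came from siDGk replicate 1 and the lowest from siCON replicate 3, and the groups overlapped. The means were 7770 ± 374 and 7875 ± 553 CPM (SD, n = 3). This is a log2 fold change of 0.02 with a 95% interval from −0.12 to 0.16 (edgeR's quasi-likelihood test, adjusted p = 0.894). The interval lies inside the threshold of 0.5 on both sides. The sign of this small difference is not fixed: the log2 fold change was −0.01 without siCON replicate 3 and −0.06 without siDGk replicate 1.

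SERPINA3 (ENSG00000196136.17) encodes alpha-1-antichymotrypsin, an acute phase inhibitor of cathepsin G and chymase. Its counts were 233, 188 and 97 in siCON libraries and 326, 171 and 318 in siDGk libraries, or 12.5, 10.0 and 9.25 against 17.6, 10.5 and 14.6 CPM. The value of siDGk replicate 2 fell within the siCON range, so the groups overlapped. The log2 fold change was 0.43 (95% interval −0.12 to 0.98; edgeR's quasi-likelihood test, adjusted p = 0.299). Leaving out single libraries moved it between 0.23 (without siDGk replicate 1) and 0.61 (without siDGk replicate 2), and SERPINA3 was not called in either case. In Gencode 44 the whole canonical transcript of SERPINA3 (1576 bases, 100% of its length) is shared with exons of AL049839.2, a gene on the same strand. At default settings featureCounts leaves out reads that overlap 2 genes, so these counts can understate SERPINA3 and its level is uncertain. AL049839.2 itself had 100, 70 and 45 counts in siCON and 41, 42 and 18 in siDGk libraries.

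SERPINA4 (ENSG00000100665.11) encodes kallistatin, an inhibitor of tissue kallikrein. Its level was 87.2, 94.4 and 72.5 CPM in siCON libraries and 46.1, 48.1 and 40.9 CPM in siDGk libraries. All 3 siDGk values lay below the lowest siCON value. SERPINA4 fell to 53.2% of its siCON mean, with a log2 fold change of −0.92 (SE 0.13; edgeR's quasi-likelihood test, adjusted p = 4.04e-05). Of its canonical transcript, 53 bases (3.18%) are shared with SERPINA5.

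SERPINA5 (ENSG00000188488.13) encodes protein C inhibitor, which acts on activated protein C and on several other coagulation and fibrinolytic proteases. The libraries read 752, 697 and 712 CPM for siCON and 670, 580 and 545 CPM for siDGk. The groups did not overlap, but the lowest siCON value and the highest siDGk value were close. The log2 fold change of −0.27 (SE 0.08; edgeR's quasi-likelihood test, adjusted p = 0.0239) was under the fold threshold, and SERPINA5 was not called. The adjusted p of the same test was 0.0976 without siCON replicate 1, 0.0947 without siCON replicate 3, 0.0870 without siDGk replicate 2 and 0.122 without siDGk replicate 3, and over all 15 alternatives, other tests included, it ran from 0.00331 to 0.122.

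SERPINA10 (ENSG00000140093.9) encodes the protein Z-dependent inhibitor of factor Xa. It was at 30.6, 31.7 and 34.5 CPM in siCON libraries and at 18.9, 24.3 and 29.5 CPM in siDGk libraries. Each siDGk library was lower than each siCON library, though siDGk replicate 3 came close to the control values. The log2 fold change was −0.41 (SE 0.18; edgeR's quasi-likelihood test, adjusted p = 0.138), and the gene was not called. Leaving out siDGk replicate 3 gave −0.59 and an adjusted p of 0.0448 in the same test, past both thresholds, and over 15 alternatives, other tests included, the adjusted p ran from 0.0448 to 0.396.

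SERPINA11 (ENSG00000186910.3), a serpin whose targets are little known, was at 164, 196 and 174 CPM in siCON libraries and at 108, 94.9 and 71.0 CPM in siDGk libraries. No siDGk library reached the siCON range. The level fell to 51.1% of the siCON mean, a log2 fold change of −0.97 (SE 0.13; edgeR's quasi-likelihood test, adjusted p = 1.68e-05).

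Both hormone carriers fell, and whether they fell further than the inhibitors was not tested. SERPINA6 (ENSG00000170099.5) encodes corticosteroid-binding globulin, which carries cortisol. Its level was 101, 114 and 109 CPM in siCON libraries and 35.4, 45.1 and 28.0 CPM in siDGk libraries. The highest siDGk value was less than each siCON value by a wide margin. SERPINA6 fell to 33.6% of its siCON mean, the lowest share of any member, with a log2 fold change of −1.58 (SE 0.15; edgeR's quasi-likelihood test, adjusted p = 3.26e-07). Its printed promoter window holds the most motif matches of the member windows, 5.

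SERPINA7 (ENSG00000123561.14) encodes thyroxine-binding globulin, the main plasma carrier of thyroid hormone. It was at 229, 208 and 232 CPM in siCON libraries and at 111, 103 and 80.8 CPM in siDGk libraries. The siDGk libraries all lay below the siCON libraries. The log2 fold change was −1.18 (SE 0.11; edgeR's quasi-likelihood test, adjusted p = 2.31e-07), and the siDGk mean was 44.03% of the siCON mean.

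AGT (ENSG00000135744.7) encodes angiotensinogen, the precursor from which angiotensin I is released. Its level was 1340, 1396 and 1241 CPM in siCON libraries and 544, 478 and 490 CPM in siDGk libraries. The replicates of each condition were close, and the groups were far apart. AGT fell from 1326 ± 78.9 to 504 ± 35.3 CPM (SD, n = 3), which is 38.0% of the siCON mean and a log2 fold change of −1.40 (SE 0.08; edgeR's quasi-likelihood test, adjusted p = 2.87e-10). Over all annotated exons of AGT, 1127 bases (8.87%) overlap COG2 on the opposite strand, where reads could not be assigned, but 0 of these lie in the canonical transcript. A further 156 bases of the canonical transcript (7.37%) are shared with a gene on the same strand that is not in the count table.

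**Figure D2:**
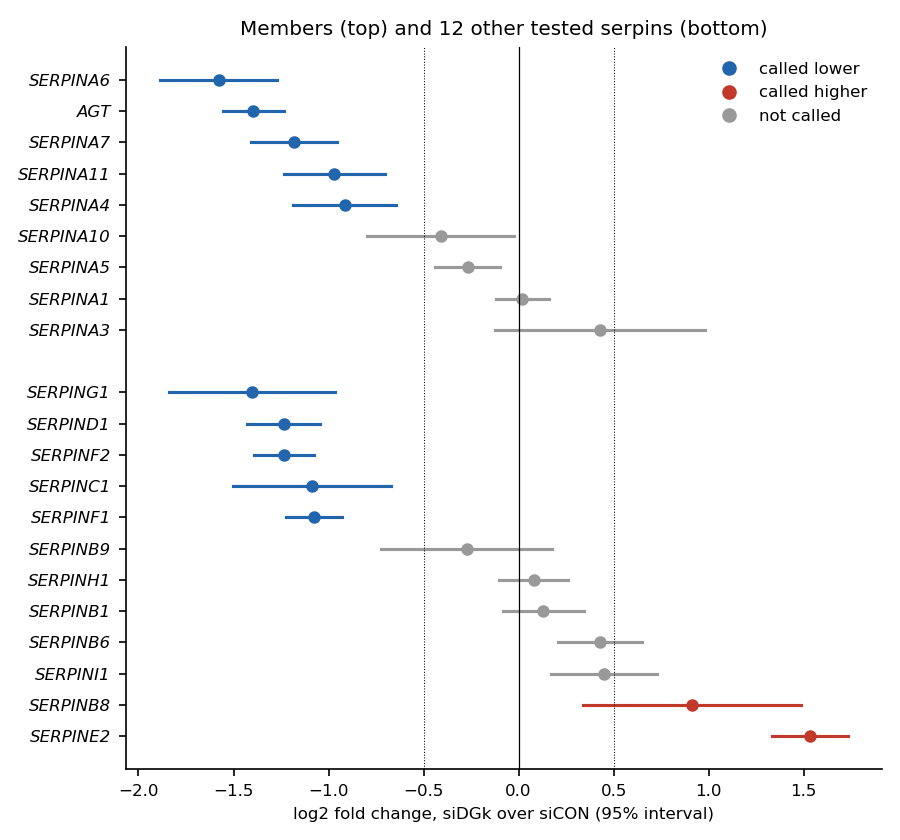
Log2 fold change (siDGk over siCON) with its 95% interval for the 9 members (top) and 12 of the 13 other serpins tested (bottom), where dotted lines mark the threshold of 0.5. Member values run from −1.58 for SERPINA6 to 0.43 for SERPINA3, and the interval of SERPINA1 crosses 0.

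The spread between members can be read within each library, without any scaling between libraries, as counts per 1000 SERPINA1 counts. For AGT this ratio was 173, 171 and 168 in siCON libraries and 64.1, 64.3 and 63.6 in siDGk libraries. The 3 siDGk values were almost the same, though their AGT levels in CPM were not. The mean ratio went from 171 ± 2.70 to 64.0 ± 0.389, and the exact two-sided permutation test gave p = 0.1, the smallest that 3 against 3 libraries allow. SERPINA6 had 13.0, 13.98 and 14.7 counts per 1000 SERPINA1 counts in siCON libraries and 4.17, 6.07 and 3.63 in siDGk libraries. SERPINA7 went from a mean of 28.8 ± 2.94 to 12.5 ± 1.75, SERPINA11 from 22.9 ± 1.54 to 11.6 ± 2.03, and SERPINA4 from 10.9 ± 0.954 to 5.73 ± 0.642. The ratio was lower in every siDGk library than in every siCON library for 7 of the 8 other members, against 17.2% of the other 14475 genes tested, and SERPINA3 overlapped.

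**Figure D3:**
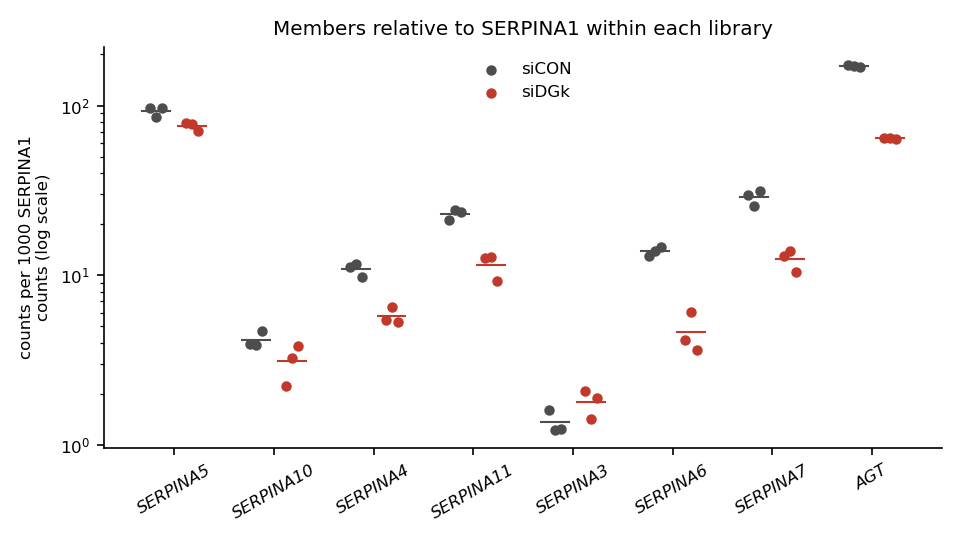
Counts of each member per 1000 SERPINA1 counts of the same library on a log axis (points, libraries; short lines, means; gray, siCON; red, siDGk). The AGT points of siDGk fall together between 63.6 and 64.3, against 168 to 173 in siCON.

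As a share of all counts, the 9 members together made up 1.03%, 1.08% and 0.995% in siCON libraries and 0.999%, 0.896% and 0.917% in siDGk libraries. The 2 ranges overlapped narrowly. Without SERPINA1 the other 8 members made up 0.267%, 0.273% and 0.257% in siCON and 0.154%, 0.141% and 0.132% in siDGk libraries. SERPINA1 accounted for 74.1%, 74.8% and 74.1% of the members' counts in siCON and for 84.6%, 84.3% and 85.6% in siDGk libraries, with no overlap.

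Of the 9 members, 7 lie in the serpin cluster of chromosome 14, chr14:94280460-94624055 in GRCh38, a stretch of 344 kb. SERPINA7 is on the X chromosome (chrX:106032435-106038727) and AGT on chromosome 1 (chr1:230690776-230745576). The canonical transcripts have 5 exons, except for the 6 of SERPINA5, and in each of the 9 members 4 exons are coding. The cluster holds 11 genes of the count table, of which 8 were tested. SERPINA1 (chr14:94376747-94390693) was not called, yet it lies between SERPINA6 (chr14:94304248-94323389) and SERPINA11 (chr14:94442464-94452800), which both fell. SERPINA2, next to SERPINA1, had 2 counts in 1 library and none in the other 5. The outermost members, SERPINA10 and SERPINA3, were not called, and SERPINA4 fell while its neighbour SERPINA5 was not called. Called and uncalled genes were thus interspersed along the cluster. Of the uncalled, SERPINA5 (−0.27), SERPINA10 (−0.41) and AL049839.2 (−1.25, at 4.45 CPM in siCON) were still lower in every siDGk library than in every siCON library. Such separation, in either direction, was seen in 36% of genes tested. For SERPINA1 and SERPINA3 the groups overlapped. Of the 5 nearest tested genes on each side, 1 was called, IFI27L2, with a log2 fold change of −1.80 (edgeR's quasi-likelihood test, adjusted p = 0.00379) at a mean of 8.23 CPM in siCON cells.

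**Figure D4:**
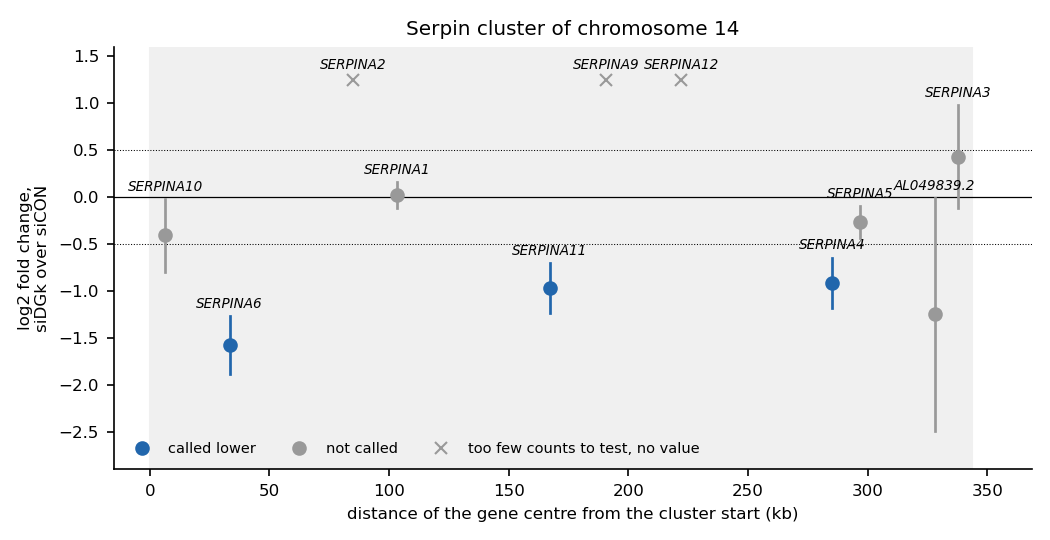
Log2 fold change (siDGk over siCON, with 95% interval) of the genes in the chromosome 14 serpin cluster against the distance of the gene centre from the cluster start in kb. SERPINA1 at 0.02 stands between SERPINA6 at −1.58 and SERPINA11 at −0.97, and crosses at the top of the plot mark genes with too few counts, which have no value.

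Serpins of other clades, together with SERPINA2, SERPINA9 and SERPINA12, were read from the same fit. Of these 25 genes of the count table, 13 were tested, 5 were called lower and 2 higher, with a list median of −0.12 in log2 fold change. For this list and those that follow, the shares over all genes tested were 6.68% called lower and 7.42% called higher. The 5 that fell encode secreted serpins found in plasma: SERPINC1 (antithrombin, −1.09), SERPIND1 (heparin cofactor II, −1.24), SERPINF1 (−1.08), SERPINF2 (alpha-2-antiplasmin, −1.23) and SERPING1 (C1 inhibitor, −1.40). The 2 that rose were SERPINE2 (1.53), a cell-associated inhibitor of thrombin, and SERPINB8 (0.91), an intracellular serpin.

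The proteases and partners on which the members act were tested in 8 of 15 cases, with 6 called lower, 1 higher and a median log2 fold change of −0.82. Prothrombin (F2) fell by 0.92 on the log2 scale, F10 by 0.71, F11 by 1.67 and PROC, the zymogen of the target of SERPINA5, by 0.57. PROZ, the cofactor of SERPINA10, fell by 1.55. TMPRSS2 was also called lower, and PLAU, the urokinase gene and a target of SERPINA5, was called higher (3.20, from 2.10 to 19.9 CPM). Neutrophil elastase (ELANE), the main target of SERPINA1, had no count in any library, and the tissue kallikrein KLK1, target of SERPINA4, had at most 20.

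Of the enzymes and receptors of the angiotensin pathway, 11 of 20 were tested, and 4 were called, with a median log2 fold change of −0.27 over the list. All 4 fell beside AGT, the receptor AGTR1 (−2.30) and the peptidases ANPEP (−1.79), PRCP (−0.89) and CTSD (−0.96). ACE, which converts angiotensin I to angiotensin II, had no count in any library.

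Genes of cortisol and thyroid hormone carriage and response, the setting of SERPINA6 and SERPINA7, were tested in 9 of 15 cases, with 4 called lower and a median log2 fold change of −0.91. TTR (−1.61) and ALB (−1.58), which also carry thyroid hormone, fell along with SERPINA7. THRB (−0.91) and DIO1 (−1.38) fell too, while the glucocorticoid receptor NR3C1 had a log2 fold change of −0.01 (edgeR's quasi-likelihood test, adjusted p = 0.979).

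The members were also set beside 2 other groups of secreted liver proteins. In the albumin family with transthyretin, all 3 tested genes fell, with a median of −1.58. Among inter-alpha-inhibitors and fetuins, 6 of 8 tested genes fell, with a median of −0.68. The 2 tested genes of these groups that, like SERPINA1, were not called had log2 fold changes of 0.20 (ITIH5) and 0.72 (FETUB).

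Among 15 liver transcription factors tested, 5 were called lower and the median log2 fold change was −0.28. CEBPA (−1.12), FOXA1 (−0.91), HNF4A (−0.51), ONECUT1 (−1.94) and NR1H4 (−1.69) fell. In the gp130 and STAT3 route, through which interleukin 6 induces SERPINA3 and SERPINA1, 1 of 9 tested genes was called higher (IL6R, 1.00) and 2 lower (IL6ST, −0.65, and OSMR, −0.75). STAT3 had a log2 fold change of −0.05, and IL6 had no count. Folding, export and disposal in the endoplasmic reticulum, where misfolded alpha-1-antitrypsin is handled, was covered by 25 genes. Of these, 4 were called lower (HSP90B1, PDIA3, CALR and LMAN1, −0.76 to −0.54) and 1 higher (ERN1, 0.56). Over all genes tested, 6.68% were called lower and 7.42% higher, and the lists were not tested as sets.

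**Figure D5:**
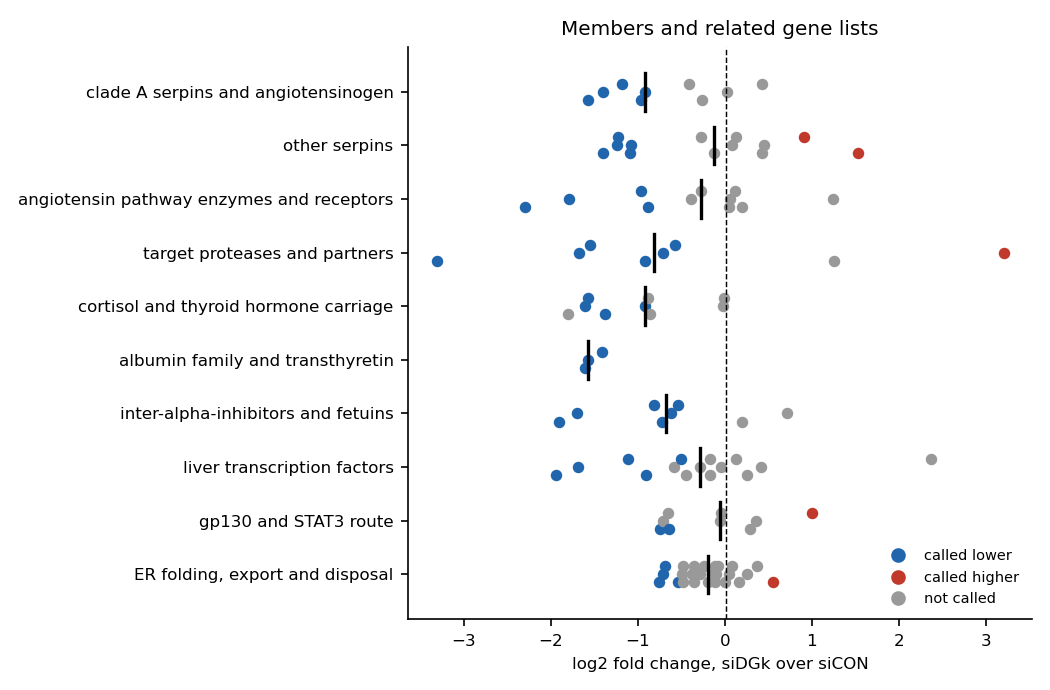
Log2 fold change (siDGk over siCON) of each tested gene (points) in the members and 9 related lists, with the list's median as a black line and the median of all genes tested, 0.02, as a dashed line. The members' median is −0.92, and their points are divided between 5 called lower and 4 near or above −0.41.

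Hepatocyte markers moved with the members that fell. Of 9 such markers, 8 were called lower, and their summed level was 45896, 39931 and 39640 CPM in siCON libraries and 20095, 17748 and 16111 CPM in siDGk libraries. ALB was the most abundant, none was at 0, and KRT18 was the exception, with a log2 fold change of 0.49. In RNA from whole cultures, fewer cells of a type and less RNA per cell cannot be told apart. Bile duct markers summed to 1237, 1466 and 1493 CPM in siCON and 2700, 2906 and 3104 CPM in siDGk libraries, with KRT19 the most abundant and called higher (1.51), EPCAM called lower (−0.82), and none of the 4 at 0. Their part in the members' fall was not tested.

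Of 6 immune markers, 1 was called higher, CD79A, and the summed level of 1612, 1702 and 1705 CPM in siCON and 1904, 1767 and 1777 CPM in siDGk libraries was nearly all LYZ. ITGAM was at 0 in all siDGk libraries. Of 5 endothelial markers, 3 were tested and 0 called in edgeR's test (2 at an unadjusted p under 0.05), STAB2 was at 0 in all 6 libraries, and VWF was the most abundant, with 510 counts in siDGk replicate 2. Of 5 fibroblast and stellate cell markers, COL1A1 was called higher, from 1.17 to 19.4 CPM, and PDGFRB lower, and they summed to 12.1, 14.97 and 10.3 CPM in siCON and 34.4, 40.4 and 21.2 CPM in siDGk libraries. COL1A1 had 374, 336 and 379 counts in the siDGk libraries, so leaving out a single library does not remove these transcripts. Their part in the members' values was not tested.

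The genes whose log2 CPM tracked the members most closely over the 6 libraries differ in number. For AGT, 465 of 9225 genes had a Pearson r above 0.95, and LAMB2, CHST13, CLU, AURKA and PCOLCE came first (r = 0.9997 for LAMB2). For SERPINA1, 4 genes did, SAR1B, GYS1, TNS1 and GNB2, followed by SLC35E3, with the highest r of 0.979 for SAR1B. These values describe 6 libraries in 2 groups, which the compared genes share along with depth and scaling. A gene that separates the groups widely, as AGT did, has a high r with other genes that do so. The numbers 465 and 4 therefore cannot be read apart from the group difference.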

How the data were processed

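Bulk RNA-seq of HepG2 cells was analysed from gene counts of 6 libraries, 3 siCON and 3 siDGk, harvested at 48 h. The deposited values are whole counts per gene, which the authors made from paired-end reads with STAR 2.6.1 (GRCh38, Gencode 27) and featureCounts 1.6.5 at default settings and a minimum quality of 10. At these settings strand is ignored, and reads with several alignments or over more than 1 gene are left out, so counts of overlapping genes are uncertain. Library totals ran from 10527216 to 21334876 counts.

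Genes were filtered with filterByExpr (minimum count 10) in edgeR 4.0.16 under R 4.3.3, normalized by TMM and compared by quasi-likelihood with robust estimation and condition as the sole term, with Benjamini-Hochberg adjustment over all 14476 genes tested. Standard errors were taken as |log2 fold change| over the root of the F statistic. Lengths, overlaps and gene positions came from Gencode 44. The alternatives were DESeq2 1.42.0 with and without shrinkage, limma-voom (limma 3.58.1), RLE and upper-quartile scaling, library sizes without mitochondrial genes, other count filters, no fold threshold, replicate number as a block, all exons for length, and each library left out in turn. The scripts were tested on simulated counts.

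The members and the gene lists were chosen with earlier results of these data known. Genes named are DGUOK, the members, listed genes that were called or show a list's level, the chromosome 14 cluster with its 5 nearest tested genes on each side, and the 5 genes averaging 10 CPM or more whose log2 CPM (prior count 2) had the highest Pearson r with SERPINA1 or AGT. Replicate pairs all differed by more than sampling noise, and every library entered as its own replicate. Some genes that this rule covers are not reported here. CPM are counts scaled to TMM-adjusted library sizes.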

Additional observations from a re-analysis of the deposited data

How the results depend on the processing

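SERPINA4, SERPINA6, SERPINA7, SERPINA11 and AGT were called lower in all 15 alternatives run for single members. The count of members called was 5 in every alternative except 6 without a fold threshold, which added SERPINA5, and 6 without siDGk replicate 3, which added SERPINA10. SERPINA1 ran from −0.0558 to 0.0618 in log2 fold change when each library was left out, with the sign turned without siCON replicate 3 (−0.0131) and without siDGk replicate 1 (−0.0558), and the cause was not tested. The range of AGT over the alternatives was −1.47 to −1.36 and that of SERPINA6 −1.76 to −1.43. With replicate number as a block (replicate block), 2077 genes and 5 members were called, 1083 genes higher and 994 lower, against 2041 genes without it. The numbers did not pair the samples: the correlation of same-numbered libraries across genes, after removing group means, was 0.024, 0.017 and −0.0022. Without a fold threshold 2847 genes were called. The members with the fewest counts were SERPINA3 and SERPINA10, with as few as 97 and 350 in a library.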
